A study of Mus musculus with 8 samples.

Results

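The genes described here are the collagens and the stellate cell matrix genes of mouse liver. They were taken by symbol: every gene whose symbol is Col, a number, the letter a and a number, together with Acta2, Timp1, Des, Lrat, Pdgfrb, Reln, Dcn, Lum, Tgfb1, Lox, Fn1 and Sparc. This gave 56 genes, 44 collagens and 12 others, each read from 1 of the 55421 transcripts in the table (the transcript with the highest mean count where a symbol was repeated). Of the 56 genes, 34 passed the filter on low counts and were tested, namely 24 collagens and 10 others, and the other 22 are given by their levels only.

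The livers came from male C57BL/6J mice that were bought at an age of 4 weeks, kept on a 45 cal% high-fat diet after acclimation and sampled at an age of 30 weeks. Sudachitin, a polymethoxylated flavone of the sudachi citrus fruit, was given by oral gavage at 100 mg per kg body weight on alternate days between ZT8 and ZT10, and control mice were given PBS as vehicle. ZT is zeitgeber time, counted in hours from lights on, so that ZT18 falls in the dark, active phase of a mouse and ZT6 in its light, resting phase. The 4 groups were sudachitin at ZT18, sudachitin at ZT6, control at ZT18 and control at ZT6, with 2 mice and so 2 RNA-seq libraries in each, and all 4 groups shared the strain, sex, age and diet.

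Collagens are triple-helical proteins of the extracellular matrix, and their chains are secreted as procollagens, cut, assembled and cross-linked outside the cell. In liver, the hepatic stellate cell, a vitamin A-storing cell beside the sinusoid, is the main source of fibrillar collagen, and in injury it turns into a myofibroblast that lays down scar. Other matrix genes have other main sources: hepatocytes secrete plasma fibronectin and much of the liver's type XVIII collagen, and endothelial cells contribute basement membrane collagen. In bulk liver RNA, fewer cells of a type and less RNA per cell cannot be told apart.

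The promoters of 5 members are shown: Col6a3, Col4a1 and its neighbour Col4a2, and the fibrillar genes Col1a2 and Col3a1. Col6a3 was the 1 member called by edgeR with all libraries and the filter on low counts, for time over both treatments, where 3.68% of all transcripts were called. The others shown were not called in that setting. Each window runs from 250 bases before to 50 bases after the RefSeq gene start on GRCm38.p6 and is written 5′ to 3′ on the gene's strand, with capitals marking matches on either strand to the CCAAT box letters (CCAAT), to the GC box letters (GGGCGG) and to the TATA box letters (TATAAA), which do not overlap each other. The windows lie at chr1:90843922-90844221 on the minus strand for Col6a3, chr8:11312777-11313076 on the minus strand for Col4a1, chr8:11312555-11312854 on the plus strand for Col4a2, chr6:4505368-4505667 on the plus strand for Col1a2 and chr1:45311288-45311587 on the plus strand for Col3a1.
Col6a3: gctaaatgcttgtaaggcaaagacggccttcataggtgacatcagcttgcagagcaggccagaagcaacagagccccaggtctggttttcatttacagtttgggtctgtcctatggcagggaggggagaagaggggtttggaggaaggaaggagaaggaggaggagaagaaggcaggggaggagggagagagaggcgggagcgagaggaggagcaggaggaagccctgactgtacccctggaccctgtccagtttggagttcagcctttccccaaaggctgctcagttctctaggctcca
Col4a1: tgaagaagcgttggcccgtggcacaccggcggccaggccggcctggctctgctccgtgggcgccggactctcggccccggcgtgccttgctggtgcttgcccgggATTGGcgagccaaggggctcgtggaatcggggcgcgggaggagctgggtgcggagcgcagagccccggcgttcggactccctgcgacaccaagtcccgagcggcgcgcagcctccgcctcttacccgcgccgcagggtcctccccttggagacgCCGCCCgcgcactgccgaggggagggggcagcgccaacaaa
Col4a2: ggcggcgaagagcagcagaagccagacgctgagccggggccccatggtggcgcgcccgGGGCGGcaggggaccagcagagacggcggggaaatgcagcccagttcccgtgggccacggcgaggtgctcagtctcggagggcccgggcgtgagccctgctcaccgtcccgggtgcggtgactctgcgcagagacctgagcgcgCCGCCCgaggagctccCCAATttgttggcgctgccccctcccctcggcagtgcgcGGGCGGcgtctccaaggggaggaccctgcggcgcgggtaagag
Col1a2: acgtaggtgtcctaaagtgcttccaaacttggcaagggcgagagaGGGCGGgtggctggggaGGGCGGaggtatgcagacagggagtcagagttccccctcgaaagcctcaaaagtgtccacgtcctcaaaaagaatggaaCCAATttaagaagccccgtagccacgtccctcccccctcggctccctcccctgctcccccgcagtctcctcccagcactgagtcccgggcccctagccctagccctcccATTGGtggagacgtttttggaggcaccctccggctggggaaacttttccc
Col3a1: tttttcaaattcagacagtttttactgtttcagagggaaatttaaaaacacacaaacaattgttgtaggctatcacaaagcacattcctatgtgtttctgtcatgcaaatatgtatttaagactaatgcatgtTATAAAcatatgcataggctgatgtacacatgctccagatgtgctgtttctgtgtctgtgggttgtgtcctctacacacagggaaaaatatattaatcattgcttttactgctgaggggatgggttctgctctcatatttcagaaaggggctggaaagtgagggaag
None of these letters occurred in the Col6a3 window, whereas the Col4a2 window held 1 CCAAT and 3 GGGCGG, the Col4a1 window 1 of each, and the Col1a2 window 2 of each. The Col3a1 window held 1 TATAAA. The RefSeq start of Col1a2 lies 125 bases from the start of the transcript that was counted, and that of Col6a3 lies 19 bases from it. Col4a1 and Col4a2 are transcribed away from each other, their windows share 78 bases and their transcripts overlap by 22 bases at the 5′ ends. Of the 42 members with a promoter in the RefSeq table, 13 (31.0%) held CCAAT, 26 (61.9%) held GGGCGG and 5 (11.9%) held TATAAA, against 37.4%, 35.7% and 13.6% of all 32851 promoters. These matches describe the letters in the windows and no binding was measured.

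Each library held between 13914116 and 17759630.5 counts on transcripts. The control ZT18 replicate 1 library stood apart: on the log CPM scale it held either the top or the bottom value in 38.2% of tested transcripts, against 17.4% to 27.7% in each of the other libraries. Values without this library are given for some, but not all, of the named values that moved by over 1.5 times when it was left out. Levels of stellate cell markers were read beside the stellate cell label. Of these, Dcn, Lrat and Reln are themselves members, so they are no separate check of it. Which cells the member transcripts came from was not tested. Mean levels over the 8 livers were 32.6 FPKM for Dcn, 11.1 FPKM for Colec11, 1.95 FPKM for Colec10, 1.80 FPKM for Lrat, 1.79 FPKM for Reln and 1.34 FPKM for Hand2, whereas Gfap averaged 0.0565 FPKM and the hepatocyte product Alb 16040 FPKM. Transcripts that mark stellate cells were measured in every liver, at low levels beside those of hepatocytes, and Gfap was near 0. FPKM scales fragments by transcript length and library depth, so that levels of different genes can be compared.

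The levels of the 56 genes spanned several orders of magnitude. Col18a1, Fn1 and Dcn averaged above 10 FPKM, 13 genes averaged 1 to 10 FPKM, 12 averaged 0.1 to 1 FPKM and 28 averaged under 0.1 FPKM. Col9a1, Col26a1 and Col6a4 were at 0 in all 8 libraries.

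**Figure D1:**
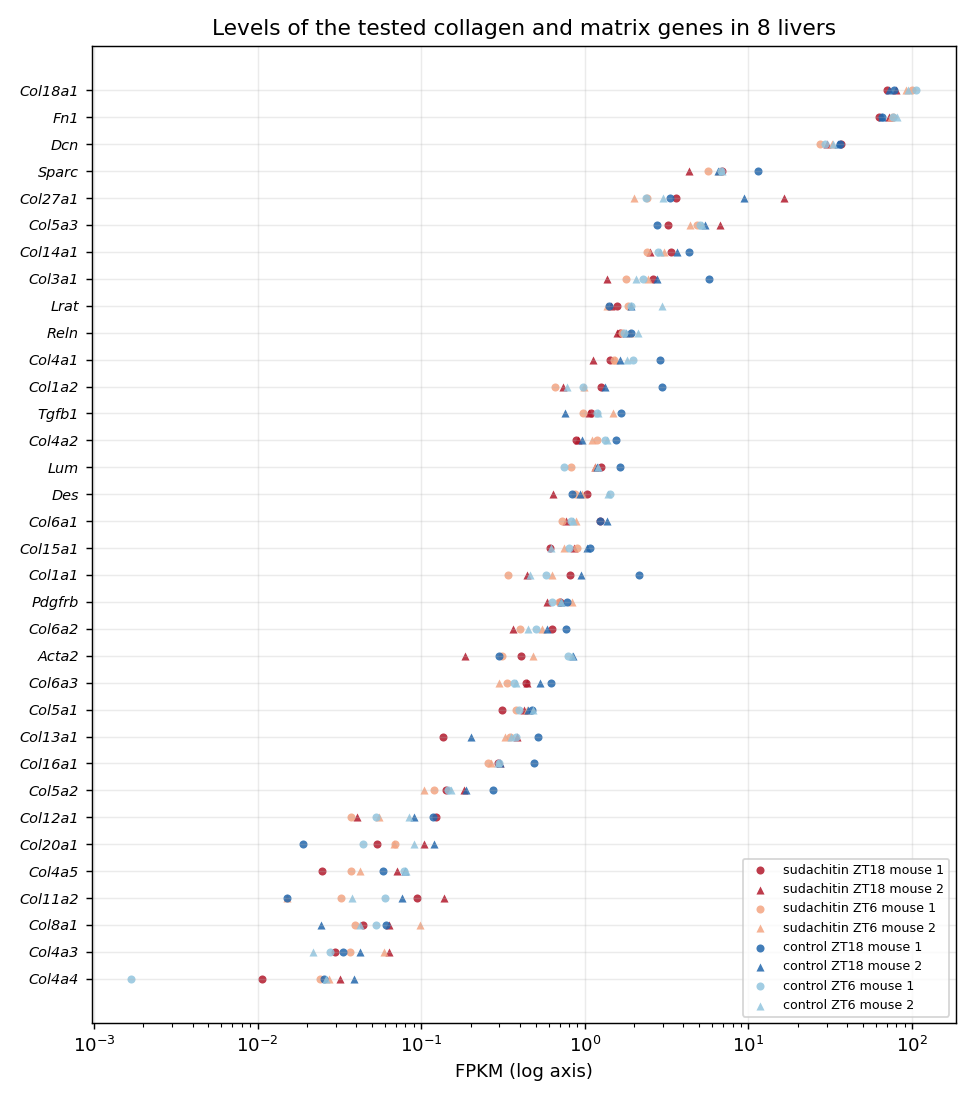
The FPKM (log axis) of the 34 tested genes in each of the 8 livers, with circles for mouse 1, triangles for mouse 2 and colours for the 4 groups. Col18a1, Fn1 and Dcn lie above 10 FPKM in all livers, and the classical scar genes Col1a1, Col1a2 and Col3a1 lie between 0.340 and 5.73 FPKM.

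Col18a1, whose protein is a basement membrane collagen and the precursor of endostatin, had the highest level of the 56. It measured 69.8 and 80.0 FPKM in sudachitin ZT18 livers, 100.4 and 92.2 FPKM in sudachitin ZT6 livers, 77.1 and 72.8 FPKM in control ZT18 livers, and 106 and 94.5 FPKM in control ZT6 livers. Every ZT18 liver was below every ZT6 liver, and sudachitin and control livers overlapped at both times. Col18a1 made up 69.8% to 84.05% of the summed FPKM of the 44 collagens in each library, so the summed collagen level followed mainly this 1 gene. Its relative Col15a1, the type XV collagen of vessel and muscle basement membranes, ranged from 0.611 to 1.08 FPKM.

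Among the fibril-forming collagens the highest was Col27a1, a collagen best known from cartilage. It measured 3.62 and 16.4 FPKM in sudachitin ZT18 livers, 2.39 and 1.99 FPKM in sudachitin ZT6 livers, 3.30 and 9.33 FPKM in control ZT18 livers, and 2.36 and 2.98 FPKM in control ZT6 livers. All 4 ZT18 livers were above all 4 ZT6 livers, but in each ZT18 group the second mouse was several times higher than the first. Col5a3, a chain of type V collagen, which seeds and limits collagen fibrils, measured 3.21 and 6.68 FPKM in sudachitin ZT18 livers, 4.82 and 4.39 FPKM in sudachitin ZT6 livers, 2.77 and 5.39 FPKM in control ZT18 livers, and 5.02 and 5.16 FPKM in control ZT6 livers. The second mouse was again the higher in each ZT18 group, and the ZT6 livers lay between the 2 mice.

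Col3a1 and Col1a2, the chains of type III and type I collagen that dominate liver scar, were high in a single liver. Col3a1 measured 2.62 and 1.36 FPKM in sudachitin ZT18 livers, 1.78 and 2.42 FPKM in sudachitin ZT6 livers, 5.73 and 2.76 FPKM in control ZT18 livers, and 2.26 and 2.05 FPKM in control ZT6 livers. Col1a2 measured 1.25 and 0.732 FPKM in sudachitin ZT18 livers, 0.655 and 0.994 FPKM in sudachitin ZT6 livers, 2.95 and 1.33 FPKM in control ZT18 livers, and 0.969 and 0.782 FPKM in control ZT6 livers. Control ZT18 replicate 1 was the highest of the 8 for both genes and control ZT18 replicate 2 the next, and the other 6 livers overlapped between groups. Col1a1, the partner chain of Col1a2, measured 0.809 and 0.445 FPKM in sudachitin ZT18 livers, 0.340 and 0.626 FPKM in sudachitin ZT6 livers, 2.15 and 0.950 FPKM in control ZT18 livers, and 0.577 and 0.465 FPKM in control ZT6 livers. The ratio of Col1a1 to Col1a2, on the FPKM scale, was below 1 in all 8 livers and ranged from 0.519 to 0.730. Col5a1 and Col5a2, the other type V chains, averaged 0.420 and 0.164 FPKM, Col11a2 averaged 0.0587 FPKM, and Col24a1, Col2a1 and Col11a1 were under 0.05 FPKM in every liver and not tested.

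Type IV collagen, the sheet of basement membranes, was represented mainly by Col4a1 and Col4a2. Col4a1 measured 1.43 and 1.12 FPKM in sudachitin ZT18 livers, 1.51 and 1.53 FPKM in sudachitin ZT6 livers, 2.88 and 1.64 FPKM in control ZT18 livers, and 1.98 and 1.82 FPKM in control ZT6 livers. All 4 sudachitin livers were below all 4 control livers, by a narrow margin between sudachitin ZT6 replicate 2 and control ZT18 replicate 2. Col4a2 ranged from 0.878 to 1.55 FPKM, and the Col4a1 to Col4a2 ratio from 1.24 to 1.86. The minor chains Col4a5, Col4a3 and Col4a4, typical of kidney and other specialised basement membranes, averaged 0.0591, 0.0393 and 0.0233 FPKM, and Col4a6 was not tested.

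Type VI collagen forms beaded microfilaments around cells, and its Col6a3 chain also gives rise to the secreted fragment endotrophin. Col6a3 measured 0.436 and 0.443 FPKM in sudachitin ZT18 livers, 0.334 and 0.298 FPKM in sudachitin ZT6 livers, 0.622 and 0.534 FPKM in control ZT18 livers, and 0.369 and 0.379 FPKM in control ZT6 livers. All ZT18 livers were above all ZT6 livers, and within each time both sudachitin livers were below both control livers. The counts behind these values ranged from 82.5 to 207 per library. Col6a1 and Col6a2, the other chains of the common type VI heterotrimer, averaged 0.983 and 0.529 FPKM, whereas Col6a6 and Col6a5 averaged 0.0162 and 0.00208 FPKM and were not tested.

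Of the fibril-associated collagens, Col14a1, which coats collagen fibrils, was the highest. It measured 3.34 and 2.48 FPKM in sudachitin ZT18 livers, 2.38 and 3.03 FPKM in sudachitin ZT6 livers, 4.30 and 3.64 FPKM in control ZT18 livers, and 2.78 and 2.87 FPKM in control ZT6 livers. The 2 control ZT18 livers were the highest of the 8. Col16a1, Col12a1 and Col20a1 averaged 0.313, 0.0751 and 0.0708 FPKM, and Col9a2, Col9a3, Col19a1 and Col22a1 were not tested. The membrane-spanning Col13a1 averaged 0.330 FPKM and the short-chain Col8a1, a vessel wall collagen, 0.0532 FPKM. Col23a1, Col25a1, Col17a1, Col8a2, Col10a1, Col7a1 and Col28a1 averaged between 0.00436 and 0.0238 FPKM and were not tested.

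Among the matrix glycoproteins and proteoglycans, Fn1, which encodes fibronectin, measured 63.0 and 71.8 FPKM in sudachitin ZT18 livers, 75.9 and 73.9 FPKM in sudachitin ZT6 livers, 65.8 and 65.5 FPKM in control ZT18 livers, and 76.8 and 80.8 FPKM in control ZT6 livers. Like Col18a1, its 4 ZT18 livers were all below its 4 ZT6 livers. Dcn encodes decorin, a small proteoglycan that binds collagen fibrils and TGF-beta, and measured 36.9 and 30.0 FPKM in sudachitin ZT18 livers, 27.4 and 32.5 FPKM in sudachitin ZT6 livers, 36.0 and 35.5 FPKM in control ZT18 livers, and 29.3 and 32.8 FPKM in control ZT6 livers. The spread of Dcn over all 8 livers was small, and the times overlapped in sudachitin livers but not in control livers. Its relative Lum, lumican, ranged from 0.746 to 1.63 FPKM.

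Sparc, a collagen-binding glycoprotein of endothelial and stellate cells, measured 6.88 and 4.33 FPKM in sudachitin ZT18 livers, 5.63 and 6.56 FPKM in sudachitin ZT6 livers, 11.4 and 6.52 FPKM in control ZT18 livers, and 6.76 and 6.87 FPKM in control ZT6 livers. Control ZT18 replicate 1 again stood above the other 7. At ZT18 sudachitin and control livers overlapped, and at ZT6 both sudachitin livers were below both control livers, as for 17.1% of all transcripts. Timp1, the inhibitor of matrix metalloproteinases that rises in fibrotic liver, had 1.5 and 0.5 counts in sudachitin ZT18 livers, 1.5 and 0.5 counts in sudachitin ZT6 livers, 22 and 3 counts in control ZT18 livers, and 1.5 and 1 counts in control ZT6 livers, and was not tested. Of its 31.5 counts in all, most were thus in control ZT18 replicate 1. Lox, the enzyme that starts collagen cross-linking, averaged 0.0304 FPKM and was not tested either. Tgfb1, the principal fibrogenic cytokine, ranged from 0.757 to 1.66 FPKM.

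Of the stellate cell and myofibroblast genes, Lrat, the enzyme that esterifies retinol for storage, measured 1.58 and 1.44 FPKM in sudachitin ZT18 livers, 1.84 and 1.37 FPKM in sudachitin ZT6 livers, 1.40 and 1.92 FPKM in control ZT18 livers, and 1.92 and 2.96 FPKM in control ZT6 livers. The highest value belonged to control ZT6 replicate 2. Reln, a secreted glycoprotein that marks stellate cells in liver, measured 1.63 and 1.56 FPKM in sudachitin ZT18 livers, 1.69 and 1.90 FPKM in sudachitin ZT6 livers, 1.91 and 1.78 FPKM in control ZT18 livers, and 1.73 and 2.10 FPKM in control ZT6 livers, with little spread. Des, the intermediate filament desmin, measured 1.03 and 0.640 FPKM in sudachitin ZT18 livers, 0.869 and 0.961 FPKM in sudachitin ZT6 livers, 0.829 and 0.927 FPKM in control ZT18 livers, and 1.43 and 1.39 FPKM in control ZT6 livers. The 2 control ZT6 livers were above the other 6 for Des.

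Acta2, the smooth muscle actin that marks activated stellate cells and vessel walls, measured 0.407 and 0.184 FPKM in sudachitin ZT18 livers, 0.310 and 0.480 FPKM in sudachitin ZT6 livers, 0.299 and 0.849 FPKM in control ZT18 livers, and 0.792 and 0.831 FPKM in control ZT6 livers. Control ZT18 replicate 1, the liver in which Col1a1, Col1a2 and Col3a1 were highest, lay among the sudachitin livers, and the other 3 control livers were above all 4 sudachitin livers. Pdgfrb, the PDGF receptor of stellate cells and pericytes, ranged from 0.588 to 0.837 FPKM with overlap between sudachitin and control livers at ZT6.

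**Figure D2:**
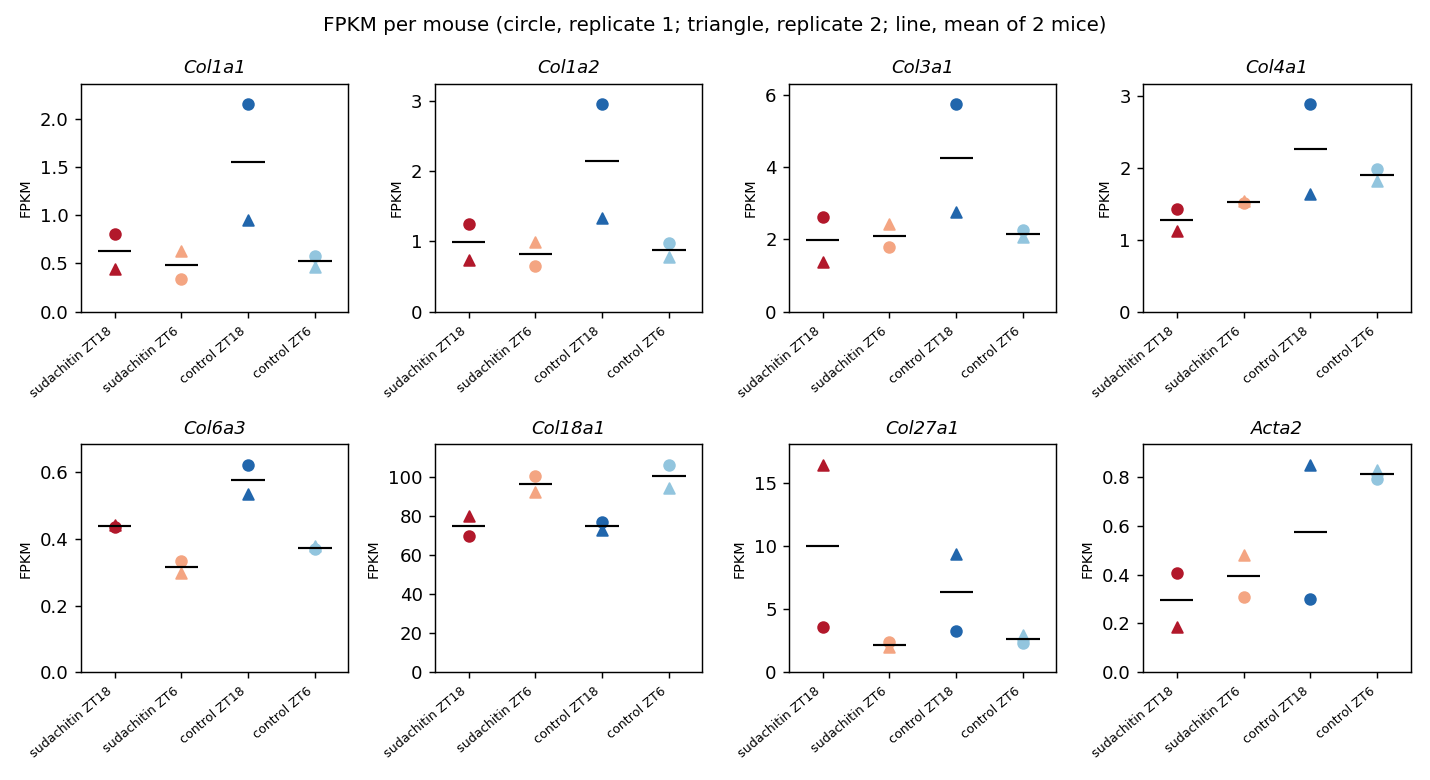
FPKM of 8 members in the 4 groups (circle, replicate 1; triangle, replicate 2; line, mean of 2 mice). Col1a1, Col1a2, Col3a1 and Col4a1 are highest in control ZT18 replicate 1, Col6a3 is higher and Col18a1 lower in all ZT18 than in all ZT6 livers, and Col27a1 is high in the second mouse of each ZT18 group.

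Control ZT18 replicate 1 was the highest of the 8 libraries for 15 of the 34 tested members, where 25.7% of all tested transcripts were highest in that library by FPKM. Of the 7 cell type marker lists, 5 had their highest sum in that library too, while the macrophage sum was highest in sudachitin ZT6 replicate 2 (99.4 FPKM, against 84.5 FPKM in control ZT18 replicate 1) and the hepatocyte sum in control ZT6 replicate 1 (38600 FPKM, against 38370 FPKM). The 11 cholangiocyte markers, of which Anxa5 and Spp1 gave most of the sum, added up to 71.6 FPKM in that library, against 37.0 FPKM in its group mate and 22.0 to 43.5 FPKM in the other 6 libraries. The 14 portal fibroblast and mesothelial markers summed to 29.0 FPKM in it, against 16.0 FPKM in its group mate and 10.7 to 16.1 FPKM in the other 6, and the 13 myofibroblast and smooth muscle markers to 35.2 FPKM, against 23.0 FPKM in its group mate and 13.2 to 27.9 FPKM in the other 6. The 21 stellate cell markers, a list without the members, summed to 94.5 FPKM in it, against 70.2 to 87.5 FPKM in the other 7, and the 15 endothelial markers to 39.0 FPKM, against 28.4 to 37.1 FPKM in the other 7. Spp1 is in both the cholangiocyte and the myofibroblast list, and gave most of the myofibroblast sum in control ZT18 replicate 1. Its level was 22.9 FPKM there, against 10.4 FPKM in control ZT18 replicate 2 and 4.89 to 16.2 FPKM in the other 6. Krt7 and Cftr, more specific to cholangiocytes, averaged under 0.1 FPKM, while Krt19 averaged 0.229 FPKM and Sox9 measured 0.467 to 1.03 FPKM. No marker was at 0 in all libraries, and the part of these cell types in the collagen values was not tested.

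**Figure D3:**
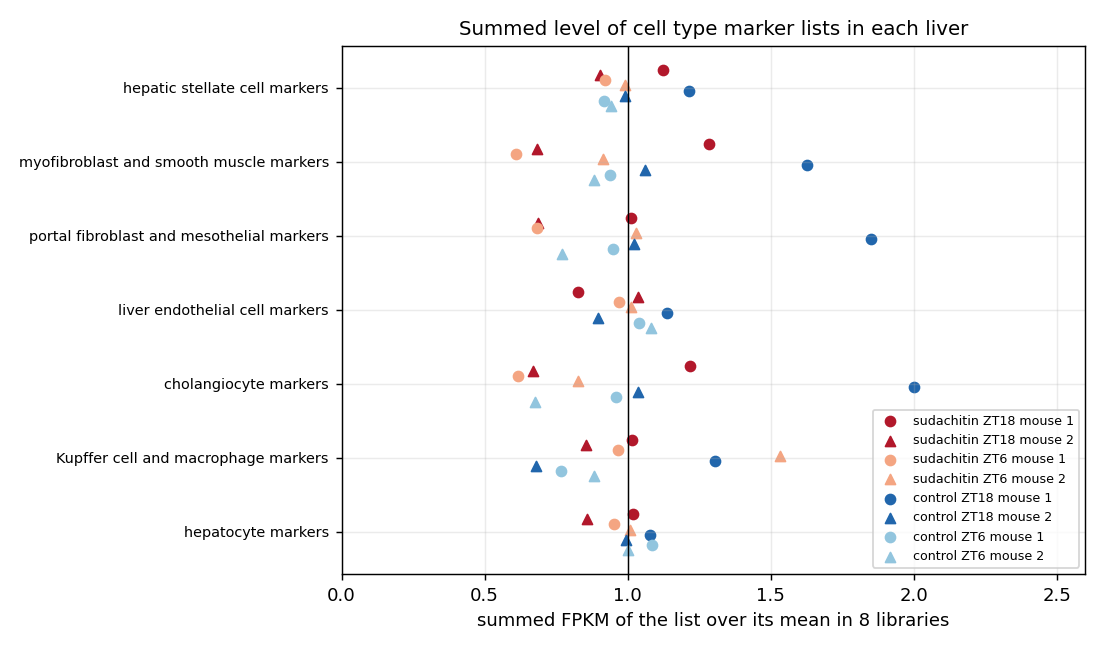
Summed FPKM of each cell type marker list in each liver, divided by the list's mean over the 8 libraries (1 is the mean). Control ZT18 replicate 1 lies at the right for cholangiocyte, portal fibroblast and mesothelial, and myofibroblast and smooth muscle markers, while hepatocyte and endothelial markers lie near 1 in all livers. In that library Anxa5 and Spp1 give most of the cholangiocyte sum, and Spp1, which is in both lists, most of the myofibroblast sum.

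**Figure D4:**
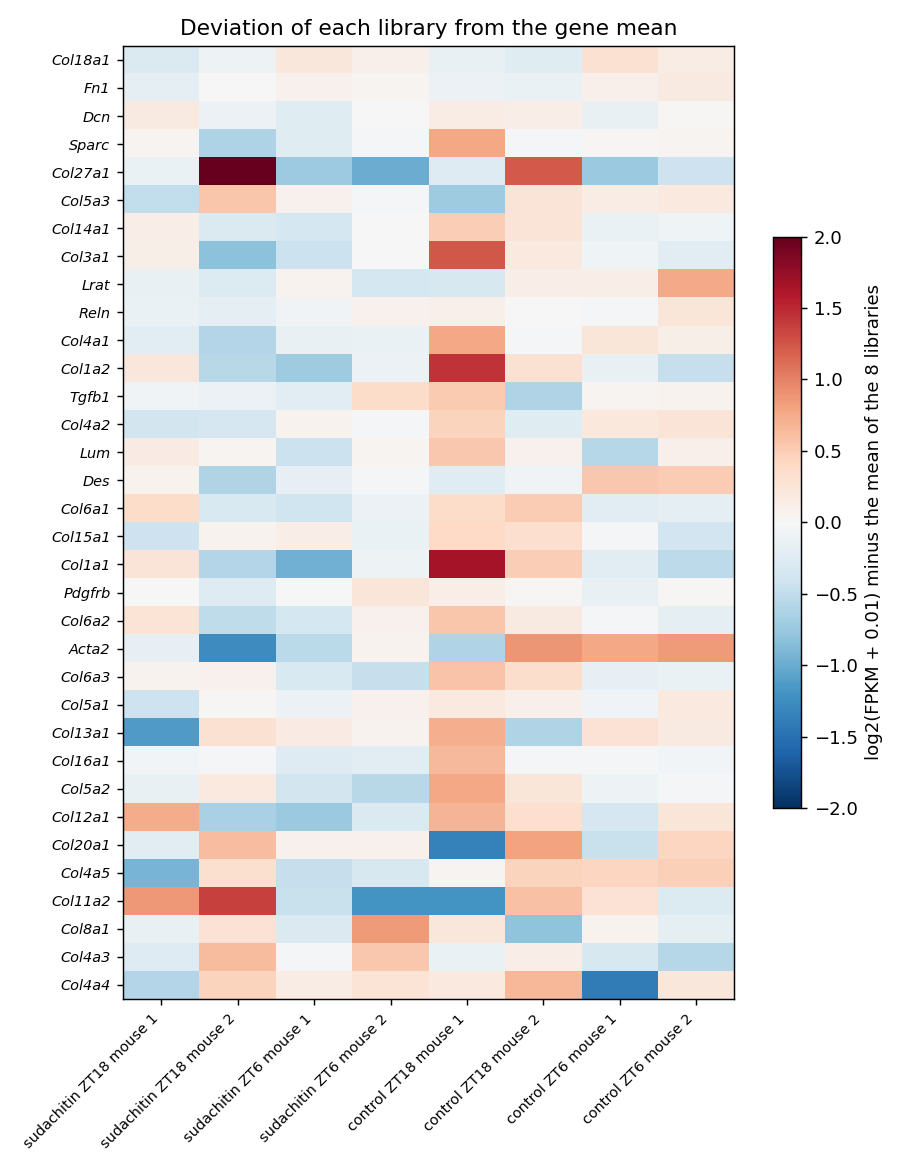
Deviation of each tested member in each library from its own mean over the 8 libraries, on the scale of log2(FPKM + 0.01), with members ordered by mean level. The column of control ZT18 replicate 1 is the reddest for Col1a1, Col1a2, Col3a1, Sparc and Col4a1, and blue for Col5a3, Acta2 and Col20a1.

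The first question of the design was whether sudachitin livers differed from control livers. At ZT18, Col1a1, Col1a2, Col3a1, Col4a1, Sparc and Col14a1 had lower mean values in sudachitin livers. The fibril-forming Col27a1, Col5a3 and Col11a2 had higher mean values there (log2 difference 0.71, 0.33 and 1.45). Col5a1 and Col5a2, also fibril-forming, had lower ones (-0.26 and -0.46). No member differed at an adjusted p under 0.05 by edgeR's quasi-likelihood test, where 0.0138% of the 14506 tested transcripts did. DESeq2 and limma called 0 members as well. By edgeR, 6 of the 34 tested members had an unadjusted p under 0.05, against 6.51% of all tested transcripts. Their log2 differences, sudachitin minus control, were -0.76 (SE 0.22) for Col4a1, -1.23 (SE 0.41) for Col1a1, -1.02 (SE 0.35) for Col3a1, -1.03 (SE 0.36) for Col1a2, -0.61 (SE 0.25) for Sparc and -0.38 (SE 0.16) for Col14a1, with adjusted p from 0.686 to 0.746. Over all tested members 26 of 34 differences were below 0 and the median was -0.30, beside a median of -0.002 over all tested transcripts.

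Without control ZT18 replicate 1, these differences at ZT18 were -0.36 for Col4a1, -0.60 for Col1a1, -0.47 for Col3a1, -0.41 for Col1a2, -0.22 for Sparc and -0.31 for Col14a1, and the median over 35 tested members was -0.155, beside 0.01 over all transcripts. Those of Col27a1 and Col11a2 were 0.12 and 0.63 without it, and that of Col5a3 changed direction to -0.11. Col5a1 and Col5a2 then differed by -0.28 and -0.21. Without sudachitin ZT18 replicate 1, Col3a1, Sparc and Col14a1 differed by -1.55, -0.96 and -0.60, and without sudachitin ZT18 replicate 2 by -0.63, -0.32 and -0.20. With control ZT18 replicate 2 left out, Col4a1 was called (-1.06, SE 0.16, adjusted p = 0.0212 by edgeR), in a fit that called 194 of 15220 transcripts, against 2 of 14506 with all libraries, and that assumed the lone control liver to vary like the other groups. Both sudachitin livers were below both control livers at ZT18 for 13 members, as for 19.3% of all tested transcripts, and above them for Col11a2, as for 11.0%. The 13 were Col1a1, Col1a2, Col3a1, Col5a1, Col5a2, Col4a1, Col4a2, Col6a1, Col6a3, Col14a1, Col15a1, Pdgfrb and Reln.

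At ZT6 the stellate cell genes Des and Lrat, not the fibrillar collagens, had the smallest p. No member was called by edgeR, DESeq2 or limma, and 0.0% of all transcripts were called by edgeR. The log2 difference, sudachitin minus control, was -0.62 (SE 0.24, unadjusted p = 0.0312) for Des and -0.60 (SE 0.26, unadjusted p = 0.0457) for Lrat by edgeR, the 2 members with an unadjusted p under 0.05, against 2.12% of all transcripts. The Lrat difference was -0.25 without control ZT6 replicate 2, its highest liver, and -0.38 without sudachitin ZT6 replicate 2. Other members that mark stellate cells differed by -0.09 (Reln), -0.05 (Dcn) and 0.19 (Pdgfrb). The 20 tested stellate cell markers outside the members had a median of 0.04, with 11 above 0. Col1a1, Col1a2 and Col3a1 differed by -0.12 (SE 0.44), -0.08 (SE 0.38) and -0.04 (SE 0.35), each less than its standard error. In all 27 of the 34 members were below 0, with a median of -0.09 beside -0.005 over all transcripts. Both sudachitin livers were below both control livers at ZT6 for 14 members, as for 17.1% of all transcripts, and above them for Col4a3, as for 14.5%.

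Over both times, with time as a covariate, no member was called by edgeR, DESeq2 or limma, where edgeR called 0.0207% of all transcripts. By edgeR, 5 members had an unadjusted p under 0.05, against 4.41% of all. Their log2 differences, sudachitin minus control, were -0.54 (SE 0.16) for Col4a1, -0.98 (SE 0.36) for Acta2, -0.28 (SE 0.11) for Col6a3, -0.32 (SE 0.13) for Col4a2 and -0.44 (SE 0.19) for Col5a2, each with an adjusted p of 0.996. Col4a1 averaged 1.40 ± 0.193 FPKM in sudachitin livers and 2.08 ± 0.551 FPKM in control livers (SD, n = 4 each), and was the only tested member whose 4 sudachitin livers were all below its 4 control livers, as 1.2% of all transcripts were. No tested member had all 4 sudachitin livers above its 4 control livers, where 0.648% of all transcripts did. Acta2 averaged 0.345 ± 0.128 FPKM in sudachitin livers and 0.693 ± 0.264 FPKM in control livers (SD, n = 4 each), from 14.5 to 55 counts per library. Without control ZT18 replicate 1 the difference over both times was -1.24 (SE 0.27) for Acta2, -0.33 (SE 0.10) for Col4a1 and -0.17 (SE 0.09) for Col4a2, none of them called. Without control ZT18 replicate 2 the Acta2 difference was -0.65.

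**Figure D5:**
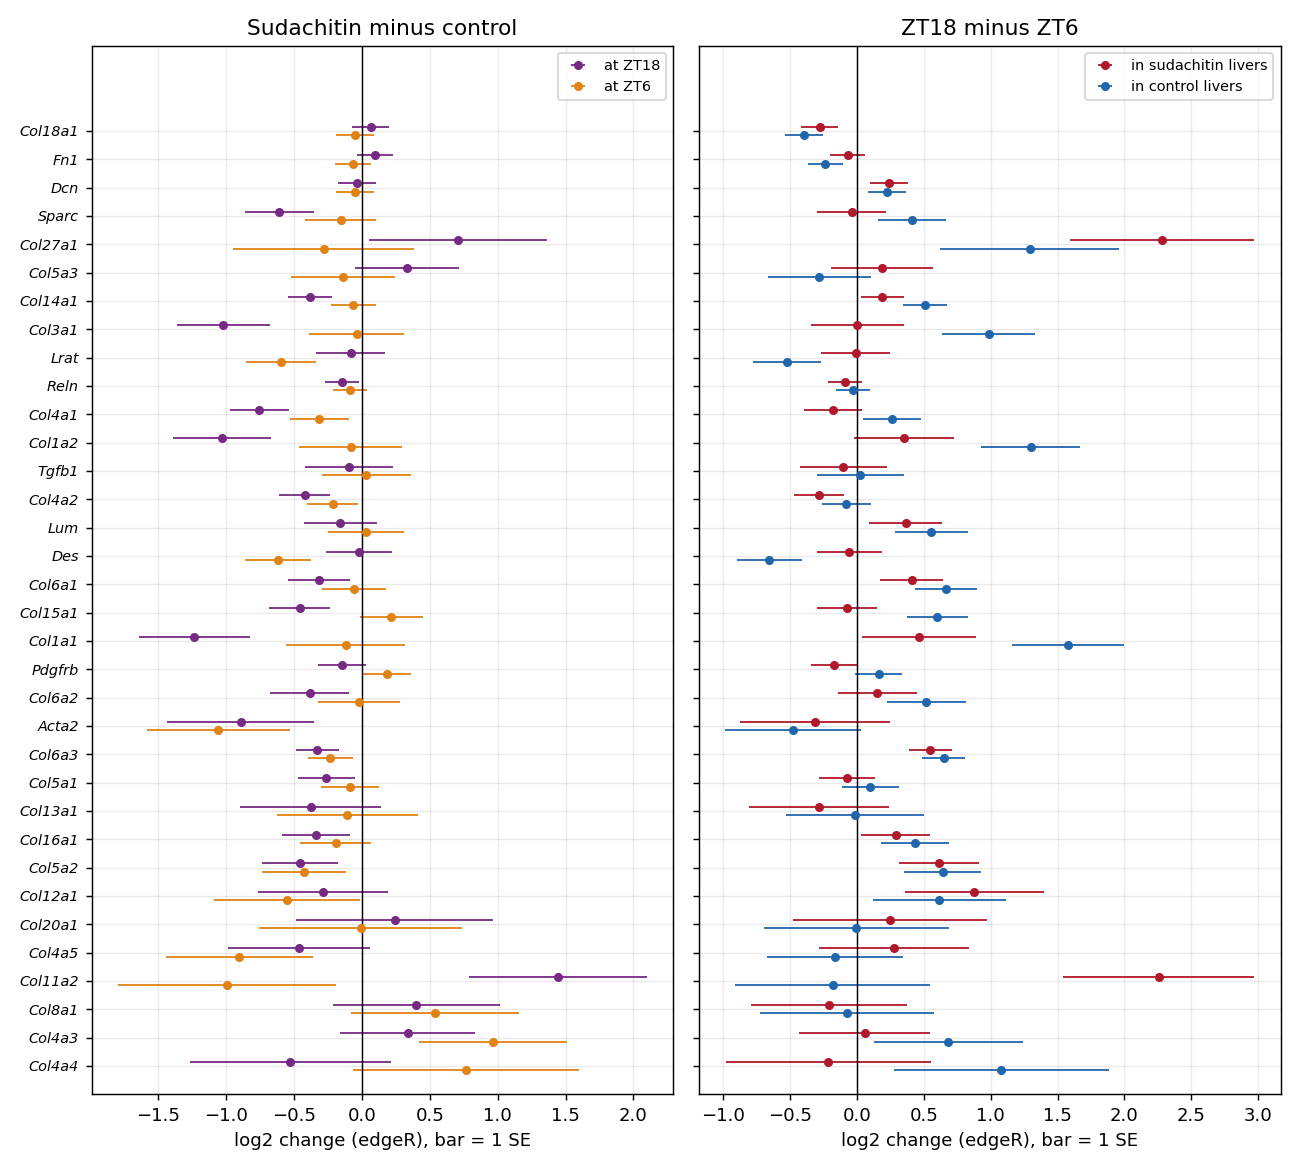
Log2 change of each tested member with 1 standard error, by edgeR, for sudachitin minus control at ZT18 and ZT6 (left) and for ZT18 minus ZT6 in sudachitin and control livers (right). Most points in the left panel lie below 0, and Col6a3 has similar changes in sudachitin livers (0.55) and control livers (0.65) in the right panel.

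The second question was whether the genes differed between the 2 times. Over both treatments, with treatment as a covariate, Col6a3 was the only member called by edgeR: it was higher at ZT18 by 0.60 on the log2 scale (SE 0.11, adjusted p = 0.0198), where 3.68% of all transcripts were called and 1.86% were called higher. It averaged 0.508 ± 0.0876 FPKM in ZT18 livers and 0.345 ± 0.0368 FPKM in ZT6 livers (SD, n = 4 each). The change was 0.55 (SE 0.16, adjusted p = 0.223) in sudachitin livers and 0.65 (SE 0.16, adjusted p = 0.163) in control livers. Over 17 alternatives it kept its direction, with log2 values from 0.16 to 0.64 and adjusted p from 0.00584 to 0.287, and 8 of them were under 0.05. The adjusted p was 0.0586 without sudachitin ZT18 replicate 1, 0.052 without sudachitin ZT6 replicate 1, 0.0741 without sudachitin ZT6 replicate 2, 0.0508 without control ZT18 replicate 2, 0.0778 without control ZT6 replicate 1 and 0.0788 without control ZT6 replicate 2, and the log2 change stayed between 0.56 and 0.64 when any 1 library was left out.

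A further 9 members had an unadjusted p under 0.05 for time over both treatments, against 20.4% of all transcripts, so that 10 of 34 did in all. On the log2 scale, ZT18 minus ZT6, Col18a1 differed by -0.34 (SE 0.09, adjusted p = 0.0824), Col27a1 by 1.79 (SE 0.49, adjusted p = 0.0845), Col6a1 by 0.54 (SE 0.16, adjusted p = 0.103) and Col5a2 by 0.63 (SE 0.19, adjusted p = 0.112) in edgeR's fit. Col1a1, Col14a1 and Col1a2 followed with 1.04 (SE 0.34), 0.35 (SE 0.12) and 0.84 (SE 0.30). Without control ZT18 replicate 1 the change was 0.65 for Col1a1 and 0.48 for Col1a2, and without sudachitin ZT18 replicate 2 it was 1.09 for Col27a1. Of the 24 tested collagens 19 were above 0, with a median of 0.34, beside 0.019 over all transcripts, whereas 3 of the 10 other members were above 0. All ZT18 livers were above all ZT6 livers for Col27a1 and Col6a3, as for 4.36% of all transcripts, and below them for Col18a1 and Fn1, as for 8.99%. Without control ZT18 replicate 1, Col27a1 was called in addition (2.11, adjusted p = 0.0182, in a fit that called 1048 of 15003 transcripts), and without sudachitin ZT18 replicate 2, the liver with the highest Col27a1, Col6a1 was called beside Col6a3 (0.68, adjusted p = 0.0313, in a fit that called 415 of 14961 transcripts).

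Within sudachitin livers no member was called for time by edgeR, which called 0.186% of all transcripts (0.11% higher and 0.0758% lower), nor by DESeq2 or limma. By edgeR, 3 members had an unadjusted p under 0.05, against 12.6% of all: Col6a3, Col27a1 (2.28, SE 0.69) and Col11a2, a fibril-forming chain best known from cartilage (2.26, SE 0.71, from 2.5 to 28.5 counts per library). Without sudachitin ZT18 replicate 2 the change of Col27a1 was 0.79. The changes of Col1a1, Col1a2 and Col3a1 were 0.46 (SE 0.43), 0.35 (SE 0.37) and 0.00 (SE 0.35). Both sudachitin ZT18 livers were above both sudachitin ZT6 livers for Col11a2, Col16a1, Col27a1, Col5a2 and Col6a3, as for 17.1% of all transcripts, and below them for Col18a1, Fn1, Col4a1, Col4a2 and Reln, as for 31.7%.

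Within control livers no member was called for time by edgeR, which called 0.524% of all transcripts, nor by limma. DESeq2 called Col1a1 and Col1a2, in a fit that called 264 of 14506 transcripts. By edgeR, 9 members had an unadjusted p under 0.05, against 12.9% of all transcripts. The log2 changes, ZT18 minus ZT6, were 1.58 (SE 0.42, adjusted p = 0.179) for Col1a1, 1.30 (SE 0.37, adjusted p = 0.214) for Col1a2, 0.98 (SE 0.35) for Col3a1, 0.67 (SE 0.23) for Col6a1, 0.51 (SE 0.16) for Col14a1, -0.40 (SE 0.14) for Col18a1 and -0.66 (SE 0.24) for Des. The type I and III changes moved with 1 library: without control ZT18 replicate 1 they were 0.94 for Col1a1, 0.68 for Col1a2 and 0.43 for Col3a1, and with control ZT18 replicate 2 left out instead edgeR called Col1a1 (2.01, adjusted p = 0.0336) and Col1a2 (1.73, adjusted p = 0.0319), in a fit that called 323 of 15220 transcripts. Both control ZT18 livers were above both control ZT6 livers for 14 members, as for 18.3% of all transcripts, and below them for Col18a1, Des and Fn1, as for 22.1%.

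Whether the time change differed between sudachitin and control livers was tested as the interaction of treatment and time. No member was called by edgeR, DESeq2 or limma, and edgeR called 0.0% of all transcripts. Col11a2 had an unadjusted p under 0.05 (2.44, SE 1.03, unadjusted p = 0.044 and adjusted p = 0.998), against 3.78% of all transcripts, and its value was 1.61 without control ZT18 replicate 1 and 4.01 without control ZT18 replicate 2. The interaction was -1.11 (SE 0.60) for Col1a1, -0.98 (SE 0.49) for Col3a1 and -0.95 (SE 0.52) for Col1a2, and these were -0.48, -0.44 and -0.34 without control ZT18 replicate 1. For Col6a3 it was -0.10 (SE 0.23).

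Genes that act on the members or lie beside them in the matrix were followed as lists, together with cell type markers. Of 26 tested genes of collagen folding and processing, 2 rose and 1 fell at ZT18 over both treatments by edgeR. Over all transcripts, 1.86% were called higher and 1.82% lower, and these shares also stand beside the calls over both treatments in the lists that follow. P4ha1 and P4ha2, the catalytic subunits of collagen prolyl 4-hydroxylase, were higher by 1.28 (SE 0.21, adjusted p = 0.0136) and 0.90 (SE 0.18, adjusted p = 0.0285) on the log2 scale, and Ppib, the cyclophilin that helps collagen fold, was lower by a log2 change of -0.49 (SE 0.10, adjusted p = 0.0367). P4ha1 measured 2.45 and 1.42 FPKM in sudachitin ZT18 livers and 1.69 and 2.15 FPKM in control ZT18 livers, against 0.815 and 0.897 FPKM in sudachitin ZT6 livers and 0.595 and 0.978 FPKM in control ZT6 livers. All ZT18 livers were above all ZT6 livers for P4ha1, as for 4.36% of all transcripts. The list's median change was 0.15, beside 0.019 over all transcripts.

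Of 12 tested genes of matrix degradation and its inhibitors, Adamts1, a metalloproteinase that cuts proteoglycans, and Timp3, a matrix-bound inhibitor, rose at ZT18 over both treatments, by 1.02 (SE 0.12, adjusted p = 0.00379) and 0.80 (SE 0.15, adjusted p = 0.0222), and none fell. Adamts1 measured 1.45 and 1.25 FPKM in sudachitin ZT18 livers and 2.21 and 1.72 FPKM in control ZT18 livers, against 0.658 and 0.821 FPKM in sudachitin ZT6 livers and 1.03 and 0.846 FPKM in control ZT6 livers. It was also the 1 list gene called by edgeR for time in control livers alone (1.08, SE 0.18, adjusted p = 0.0445), where 0.524% of all transcripts were called. Of 25 tested genes of the TGF-beta pathway 1 rose over both treatments, Itgb8, an integrin chain that activates latent TGF-beta (1.45, SE 0.32, adjusted p = 0.0419, at 0.0121 to 0.0578 FPKM). Tgfbr2, the ligand-binding TGF-beta receptor, differed by 0.83 (SE 0.20, adjusted p = 0.0518).

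Of 31 other basement membrane and matrix genes, Lamb2, a laminin chain, and Bgn, the proteoglycan biglycan, rose at ZT18 over both treatments, by 0.76 (SE 0.16, adjusted p = 0.0339) and 0.36 (SE 0.08, adjusted p = 0.0364). In this list 29 of the 31 were above 0 with a median of 0.36, beside 52.7% above 0 and a median of 0.019 over all transcripts. Of 20 stellate cell markers outside the members, Adamtsl2, a microfibril-binding protein, rose (0.68, SE 0.15, adjusted p = 0.0441) and Ngfr, a neurotrophin receptor, fell (-0.68, SE 0.15, adjusted p = 0.043), and the median was 0.24. With all libraries and the filter on low counts, edgeR and limma called no myofibroblast, portal fibroblast, endothelial, cholangiocyte, macrophage or hepatocyte marker for time over both treatments. DESeq2 called 1, the hepatocyte gene Fgb, among 950 of 14506 transcripts in all. An unadjusted p under 0.05 by edgeR was found for 10 of 20 stellate cell, 3 of 11 myofibroblast, 2 of 9 portal fibroblast, 2 of 15 endothelial, 3 of 8 cholangiocyte, 1 of 15 macrophage and 1 of 12 hepatocyte markers, against 20.4% of all transcripts.

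Most of these list calls depended on single libraries, as seen when each of the 8 was left out in turn and edgeR was run again. Adamts1 over both treatments was called without any 1 of the 8, and P4ha1 was lost without sudachitin ZT6 replicate 1 (adjusted p = 0.057). Timp3 was lost without sudachitin ZT18 replicate 1, sudachitin ZT6 replicate 1, control ZT6 replicate 1 or control ZT6 replicate 2 (highest adjusted p = 0.0841). P4ha2 was still called without sudachitin ZT18 replicate 2, control ZT18 replicate 1 or control ZT6 replicate 2 and lost without any other (highest adjusted p = 0.0891). Bgn and Ppib were still called only without sudachitin ZT18 replicate 2 or control ZT18 replicate 1 (highest adjusted p = 0.137 and 0.106), and Adamtsl2 only without control ZT18 replicate 1 or control ZT6 replicate 2 (0.135). Lamb2, Itgb8 and Ngfr were still called only without control ZT18 replicate 1 (highest adjusted p = 0.109, 0.13 and 0.13), and Adamts1 within control livers only without control ZT18 replicate 2 (0.348).

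For treatment, no gene of these lists was called at ZT18, at ZT6 or over both times with all libraries and the filter on low counts. This held for edgeR, DESeq2 and limma. By edgeR, an unadjusted p under 0.05 was found for 20 of 184 tested list entries at ZT18 (6.51% of all transcripts), for 11 at ZT6 (2.12%) and for 25 over both times (4.41%). Among them were Hspg2, the basement membrane proteoglycan perlecan (-0.42, SE 0.11, adjusted p = 0.996), Nid1, the linker nidogen (-0.54, SE 0.23, adjusted p = 0.996), Lamb3, a laminin chain (-0.68, SE 0.22, adjusted p = 0.996), and Adamts1 (-0.41, SE 0.12, adjusted p = 0.996). Nid1 and Lamb3 were highest in control ZT18 replicate 1, and without it they differed by -0.21 (SE 0.11) and -0.38 (SE 0.15). Over 17 alternatives, Nid1 and Lamb3 each had an adjusted p under 0.05 in 1. Hspg2 measured 0.378 and 0.470 FPKM in sudachitin ZT18 livers and 0.359 and 0.451 FPKM in sudachitin ZT6 livers, against 0.656 and 0.544 FPKM in control ZT18 livers and 0.543 and 0.525 FPKM in control ZT6 livers. As for Col4a1, its 4 sudachitin livers were all below its 4 control livers, as 1.2% of all transcripts were. The stellate cell markers had a median difference of 0.03, with 13 of 20 above 0, and the other basement membrane and matrix genes one of -0.19, with 24 of 31 below 0. Over all tested transcripts the median was -0.001 and 49.74% were above 0. Without control ZT18 replicate 1 the medians were 0.01 for the stellate cell markers and -0.1 for the other basement membrane and matrix genes.

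On GRCm38, the transcript of Col6a3 that was counted spans chr1:90766860-90843952 on the minus strand with 41 exons, that of Col4a1 chr8:11198423-11312826 on the minus strand with 52 exons, that of Col18a1 chr10:77053016-77113705 on the minus strand with 41 exons and that of Col1a1 chr11:94936224-94953042 on the plus strand with 51 exons. The libraries did not keep strand, so reads cannot be told apart where exons of opposite genes overlap. In the GENCODE M21 annotation, 14 of the 56 members share exon bases with a gene on the opposite strand and 3 with another gene on the same strand. Fn1 shares 267 of 8269 exon bases, Des 220 of 3019, Reln 246 of 11634, Col4a3 563 of 8502 and Col4a1 22 of 6563, and Col3a1 shares 141 of 5513 with a gene on its own strand. Col6a3, Col18a1, Col27a1, Col1a1, Col1a2, Dcn, Sparc, Lrat and Acta2 share none.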

How the data were processed

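Liver RNA was sequenced as poly(A)-selected, non-stranded libraries with paired reads of 150 bases, per the labels' protocols. The authors deposited, for each of 55421 GENCODE transcripts on GRCm38 (mm10), estimated counts over exons and FPKM values. The submitters' processing notes name Trimmomatic 0.39, STAR 2.7.2a and HOMER, without their roles. In each library 19.7% to 21.9% of the deposited counts are not whole but in steps of 0.5. The sources used here do not say how reads that match several places were counted.

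The deposited counts were rounded to whole numbers and fitted with edgeR 4.0.16 (R 4.3.3): TMM scaling (factors 0.966 to 1.016), filterByExpr by group, which left 14506 transcripts, the quasi-likelihood F test, and Benjamini-Hochberg adjustment over all of them, with an adjusted p under 0.05 called. Comparisons within 1 time or treatment, and the interaction, came from a 4-group model; those over both came from an additive model. All 8 libraries entered each fit, 7 comparisons were made, and each standard error is the log2 change divided by the square root of F. The tests were first checked on simulated counts. Alternatives were DESeq2 1.42.0, limma 3.58.1 on log2(FPKM + 0.1) or log2(FPKM + 1), other scalings and filters, a replicate block and leaving out each library. Nothing in the labels says that a replicate number pairs mice. Each title carries a code whose meaning is not given. Both ZT6 mice of a treatment share its first part and the ZT18 mice of a treatment do not. No first part is shared between sudachitin and control mice. What the code marks therefore cannot be told apart from time or from treatment. P-values measure only the spread between these samples.

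The members, gene lists and tests were chosen with earlier results of these data known. Per-library values were to be given for the 12 members with the highest mean level and for called members, log2 changes for at most 8 members with an unadjusted p under 0.05 per comparison, and up to 3 genes of each list, or 6 where called. Col1a1, Acta2, Des, Timp1 and Hspg2, and the promoters of Col6a3, Col4a1 and Col4a2, were added after their values were seen. Promoter sequences are from RefSeq (GRCm38.p6) and exon overlaps from GENCODE M21.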

Additional observations from a re-analysis of the deposited data

How the results depend on the processing

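With all libraries and the filter on low counts, edgeR called 1 member for time over both treatments and 0 in the other 6 comparisons. DESeq2 called 2 members (264 transcripts in all) for time in control livers and 5 (950) for time over both treatments. Without a filter on low counts edgeR tested 53 members among 28464 transcripts. It called 6 members (488 transcripts in all) for sudachitin against control at ZT18, 5 (309) for sudachitin against control over both times, 2 (861) for time in sudachitin livers, 4 (881) for time in control livers, 7 (1629) for time over both treatments and 3 (259) for the interaction, and the cause was not tested. All 3 versions of limma called 0 for time over both treatments. When single libraries were left out, the number called ranged from 0 to 2 for time over both treatments, from 0 to 2 for time in control livers and from 0 to 1 for sudachitin against control at ZT18, and was 0 in the other 4 comparisons; a group left with 1 mouse was assumed to vary like the others. Of the called genes and the members with an unadjusted p under 0.05 (at most 8 a comparison), recomputed under every alternative that could be fitted, none changed direction.

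The correlations of the deviations of same-numbered mice ranged from -0.204 to 0.281, the highest between the 2 ZT18 groups; they were not over 0.1 in every pair of groups and the labels name no pairing, so the mice were not treated as pairs. With the replicate number as a block, edgeR called 1 member for time over both treatments and 0 in the other comparisons. The pairing with crossed numbers in sudachitin livers, added after seeing the data, gave 2 members for time in sudachitin livers, where it called 490 of 14098 transcripts in all. Fits restricted to the groups compared gave no value for the additive comparisons or the interaction, which need all groups.

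Over all transcripts DESeq2 called more than edgeR: 46 against 2 for treatment at ZT18, 9 against 0 at ZT6, 13 against 3 over both times, 274 against 27 for time in sudachitin livers, 264 against 76 in control livers, 950 against 534 over both treatments and 12 against 0 for the interaction. Each group held 2 mice, and the precision of members with few reads is limited by counting: Acta2 had 14.5 to 55 counts per library.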

Other observations

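Markers of macrophages, whose products act on stellate cells, were measured beside the members. At ZT6, 14 of 15 tested Kupffer cell and macrophage markers had higher mean values in sudachitin livers, with a median log2 difference of 0.64. No marker was called there by edgeR, DESeq2 or limma with all libraries and the filter on low counts. By edgeR, 4 had an unadjusted p under 0.05. Over all tested transcripts 48.85% were above 0, the median was -0.005 and 2.12% had an unadjusted p under 0.05. Their FPKM summed to 62.6 and 99.4 in sudachitin ZT6 livers, against 49.7 and 57.2 in control ZT6 livers. At ZT18 the sums were 65.8 and 55.4 FPKM in sudachitin livers, against 84.5 and 44.0 FPKM in control livers, which overlapped. Marco, a macrophage scavenger receptor, measured 1.48 and 0.513 FPKM in sudachitin ZT18 livers and 0.553 and 0.908 FPKM in sudachitin ZT6 livers, against 0.627 and 0.541 FPKM in control ZT18 livers and 0.248 and 0.283 FPKM in control ZT6 livers (log2 difference over both times 1.08, SE 0.34, adjusted p = 0.996 by edgeR). Its adjusted p over both times was under 0.05 in 1 of 17 alternatives.

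Among the endothelial markers, Egfl7, a secreted vessel protein, measured 2.64 and 2.78 FPKM in sudachitin ZT18 livers and 2.87 and 2.97 FPKM in sudachitin ZT6 livers, against 3.70 and 3.57 FPKM in control ZT18 livers and 3.69 and 4.28 FPKM in control ZT6 livers. All 4 sudachitin livers were below all 4 control livers, as for 1.2% of all transcripts, and the log2 difference over both times was -0.40 (SE 0.10, adjusted p = 0.996 by edgeR). It had the smallest p of the 15 endothelial markers, of which 12 were below 0. With all libraries and the filter on low counts, 0 of the 15 were called by edgeR, DESeq2 or limma. Their median was -0.12, and -0.08 without control ZT18 replicate 1, and 3 had an unadjusted p under 0.05 by edgeR. The endothelial marker Lyve1 had an adjusted p under 0.05 over both times in 1 of 17 alternatives.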
